A study of Mus musculus with 12 samples.

Results

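The Rab GTPases were taken as the genes whose symbol in the deposited tables is Rab followed by a number and, at most, a letter and a further digit. This gave 59 genes of the 43432 in the count table, without effectors or exchange factors. By the compartment each protein is best known for, 21 were grouped as endosomal (early, recycling or late endosome) and 38 as other (ER and Golgi, exocytosis and secretion, lysosome-related organelles with cilia and autophagy, and less studied members).

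Rab proteins are small GTPases that mark membrane compartments. Bound to GTP, they recruit the effectors that move, tether and fuse vesicles, and exchange factors and GTPase-activating proteins switch them on and off. Mtmr2 is a phosphatase that removes the 3-phosphate from PI(3)P and PI(3,5)P2, the phosphoinositides of early and late endosomes, which several endosomal Rab effectors bind. Loss of MTMR2 causes the demyelinating neuropathy CMT4B1, with excess folds of myelin made by Schwann cells, and the comparison of endosomal with other Rab genes asks whether the transcripts of this machinery differ in that nerve.

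The libraries come from sciatic nerves taken at 1 month of age, 1 per mouse, with 4 mice in each of 3 groups. The WT control mice were Mtmr2 wt/wt and untreated, the Mtmr2 KO mice were Mtmr2 -/- and untreated, and the niacin-treated Mtmr2 KO mice were Mtmr2 -/- and were given niacin (120 mg/kg, intraperitoneal) between P10 and P21, then slow-release niacin by gavage to P30. Untreated here means given no niacin, and the paper describes the Mtmr2 KO mice of the niacin comparison as vehicle treated. Each group held 3 males and 1 female, and no niacin-treated wild-type group was analysed here, so a niacin effect was seen only on the null background. The null allele is present in every cell type, and a whole nerve holds Schwann cells, axons, fibroblasts, vessels, macrophages and fat.

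Libraries held between 20763951 and 33191106 counts, and those of the niacin group, at 20983641 to 22935378, were all shallower than those of WT controls, at 26653828 to 28390961. Markers of myelinating Schwann cells (Pmp22, Mbp, Prx, Mag and Drp2) summed to between 51680 and 78260 CPM (counts scaled to a common library total) in every library, as a peripheral nerve should show. Mtmr2 KO and WT control did not overlap, at 70060 to 78260 against 52500 to 64330 CPM, while the niacin group, at 51680 to 76320 CPM, overlapped both. Non-myelinating Schwann cell markers were at 520 to 848 CPM in Mtmr2 KO against 391 to 487 CPM in WT controls. The part of these markers in the Rab differences was not tested. Several libraries stood apart. Mtmr2 itself, the targeted gene, was at 161, 130, 128 and 137 CPM in WT controls and between 66.8 and 73.5 CPM in the 4 niacin-treated libraries, but at 71.6, 84.7, 143 and 69.5 CPM in the libraries labelled Mtmr2 KO. Library 4503, labelled Mtmr2 KO, thus lay within the WT range. Differences with Mtmr2 KO of single Rab genes and of genes that act on Rabs are also given without 4503 where that changes a call or moves the value by over 1.5 times. The difference of Mtmr2 between Mtmr2 KO and WT control was -0.59 on the log2 scale with 4503 and -0.89 without it. Only the latter had an adjusted p under 0.05 in edgeR. A count over the whole gene does not show which exons were read, so transcript from the null allele is counted too. Mitochondrial genes took 6.997% of counts in Mtmr2 KO library 4502 against 2.09% to 2.47% in the rest of that group, 2.10% to 2.80% in WT controls and 3.496% to 5.43% in niacin-treated nerves. Neuron marker genes summed to 95.2 CPM in 4502 and to 19.1 to 41.0 CPM in the other libraries, and skeletal muscle markers to 2796 and 2778 CPM in niacin-treated libraries 4506 and 4507 against 9.58 to 78.3 CPM elsewhere.

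The wild-type nerve expressed most of the family. Of the 59 Rab genes, 14 had a mean above 100 CPM in WT controls, 38 above 10 CPM and 50 above 1 CPM. To compare genes with each other, CPM was divided by the length of all exons of the gene in kilobases (kb), on the GENCODE M21 annotation of GRCm38. On that scale Rab2a, which acts between ER and Golgi, stood first at 144 ± 12.8 CPM per kb (SD, n = 4). Rab1b, of ER to Golgi transport, followed at 98.0 ± 7.08 CPM per kb and did not differ beyond its spread from Rab7, the Rab of late endosomes and lysosomes, at 93.8 ± 4.64 CPM per kb. Rab5c, a Rab of early endosome fusion, was at 81.6 ± 5.98 CPM per kb, and Rab34, which works in ciliogenesis and lysosome positioning, was at 51.8 ± 2.06 CPM per kb. These 5 genes carried 43.2% ± 1.09 of the summed Rab level. Rab5b at 47.3 ± 1.74, Rab10 at 45.2 ± 3.13 and Rab1 (also named Rab1a) at 44.9 ± 2.28 CPM per kb were too close to be ordered, and the same held for Rab8b at 32.6 ± 1.80 and Rab6a at 32.5 ± 1.68 CPM per kb. At the other end, Rab25, Rab26 and Rab17 had 45, 42 and 16 counts over all 12 libraries together and were left out of the tests by the filter on low counts. The tests therefore cover 56 Rab genes, 19 endosomal and 37 other, among 17257 genes.

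**Figure D1:**
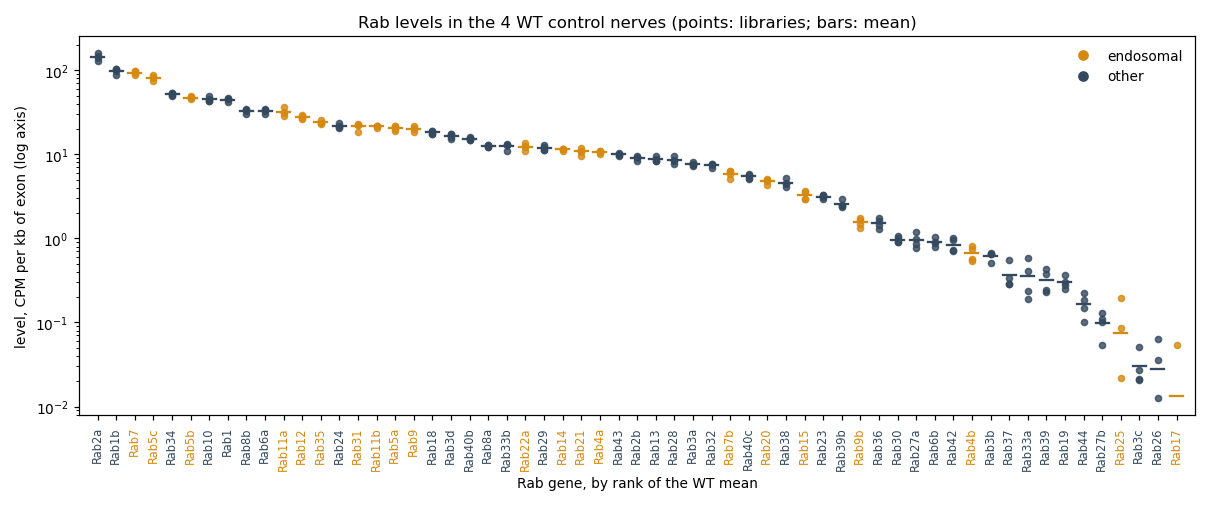
Level of each of the 59 Rab genes in the 4 WT control nerves, as CPM per kb of exon on a log axis, with points for libraries and bars for means, and with endosomal members in orange. Rab2a is highest at 144 CPM per kb, endosomal genes are spread over the whole range, and libraries with 0 counts (some of Rab25, Rab26 and Rab17) have no point.

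Endosomal members were spread along this range and did not form a block of high or low genes. In WT controls the early endosome members took 18.4% of the summed Rab level per kb, the recycling endosome members 9.56% and the late endosome members 13.8%, against 34.2% for ER and Golgi and 11.6% for exocytosis and secretion. Among early endosome genes, Rab31, which sorts cargo between Golgi and endosomes, was at 21.6 CPM per kb, Rab5a at 20.6, Rab22a at 12.3, the integrin-trafficking Rab21 at 10.8 and Rab20 at 4.77 CPM per kb. Among recycling genes, Rab11a was at 32.0 CPM per kb, Rab35 at 23.9, Rab11b at 21.5, Rab14 at 11.4, Rab4a, of fast recycling, at 10.7, Rab15 at 3.25 and Rab4b at 0.667 CPM per kb. The place of Rab14 depends on the length used, since its exons cover 13589 bases and its longest transcript 5003. Before division by length it was the highest of these genes, at 155 CPM. Among late endosome genes, Rab12 was at 28.1 CPM per kb, Rab9, of the route from late endosomes to the Golgi, at 20.1, Rab7b at 5.91 and Rab9b at 1.55 CPM per kb.

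Within the family, the shares of the recycling and late endosome classes were apart between some of the groups, and that of the early endosome class was not. The recycling members took 9.51%, 9.68%, 9.55% and 9.48% of the summed Rab level per kb in WT controls, 10.1%, 9.29%, 10.7% and 9.24% in Mtmr2 KO nerves, and 7.77%, 8.67%, 8.26% and 8.18% in niacin-treated nerves. All 4 niacin-treated libraries lay below all 8 others. The late endosome members took 13.9%, 13.7%, 13.7% and 13.9% in WT controls, 14.1%, 16.8%, 14.4% and 14.8% in Mtmr2 KO and 14.5%, 15.0%, 15.4% and 15.3% in niacin-treated nerves, so that WT controls lay below both null groups without overlap. This gap from Mtmr2 KO depended on the division by length, since without it the late endosome share was 11.1% to 11.5% in WT controls, 11.3% to 13.2% in Mtmr2 KO and 12.1% to 12.7% in niacin-treated nerves. The early endosome members overlapped, at 17.98% to 18.65% in WT controls, 15.4% to 19.9% in Mtmr2 KO and 16.2% to 18.5% in niacin-treated nerves. The share of all endosomal members together was 41.7% ± 0.34 in WT controls, 43.4% ± 1.41 in Mtmr2 KO and 40.9% ± 1.06 in niacin-treated nerves. These shares compare genes within a library and do not depend on how libraries were scaled. They are given as a description with no test, because the members were chosen with results of these data known.

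In Mtmr2 KO against WT control nerves, no Rab gene passed an adjusted p of 0.05 in edgeR (Benjamini-Hochberg, over all genes tested by quasi-likelihood). Of all 17257 genes, 0.267% did, 0.0464% higher and 0.22% lower. At an unadjusted p under 0.05 there were 2 Rab genes higher and 4 lower of 56, against 9.35% higher and 7.9% lower of all genes (17.2% in all). The groups did not overlap for 4 Rab genes, all lower in Mtmr2 KO (Rab44, Rab27b, Rab15 and Rab1). Among all genes 9.32% did not overlap, 3.85% higher and 5.46% lower, so the share among Rab genes was near the background. By DESeq2 on the 12 libraries, 2 Rab genes passed, Rab37 higher and Rab44 lower, as did 4.25% of all genes.

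Rab37, a Rab of regulated secretion (chr11:115091431-115162236, plus strand, GRCm38), had the largest difference in the family. It was at 1.53, 2.98, 1.52 and 1.81 CPM in WT controls, at 5.12, 12.1, 15.4 and 2.50 CPM in Mtmr2 KO and at 1.08, 1.21, 0.914 and 1.67 CPM in niacin-treated nerves. Mtmr2 KO libraries were above every other library except for 4504, which lay within the WT range. The difference between Mtmr2 KO and WT control was 2.16 on the log2 scale (SE 0.46, adjusted p = 0.0612 in edgeR's quasi-likelihood test), a 4.47-fold higher level. Library 4503, whose Mtmr2 level was that of a WT control, had the most Rab37, with 480 counts, and without it the difference was 1.74 on the log2 scale. Over 19 other settings the adjusted p ranged from 0.000311 to 0.188 and was under 0.05 in 5, among them the fits without 4501 and without 4504. Neutrophil markers summed to 0.962 to 14.9 CPM in Mtmr2 KO, 0.254 to 0.615 CPM in WT controls and 0.320 to 8.66 CPM in niacin-treated nerves, and their part in the Rab37 result was not tested.

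Rab44 and Rab27b lay the other way. Rab44, a large Rab of granule secretion in immune cells (chr17:29114145-29148980), was at 0.945, 1.15, 0.508 and 0.752 CPM in WT controls, 0.0697, 0.314, 0.256 and 0.289 CPM in Mtmr2 KO and 0.588, 0.347, 0.822 and 0.558 CPM in niacin-treated nerves. Mtmr2 KO libraries were below all others, but they held only 2 to 8 counts each. The log2 difference from WT control was -1.86 (SE 0.43, adjusted p = 0.0744 in edgeR). Rab27b, which docks secretory granules and exosome-forming endosomes (chr18:69979131-70141605), was at 0.582, 1.40, 1.09 and 1.16 CPM in WT controls and at 0.453, 0.493, 0.545 and 0.577 CPM in Mtmr2 KO. The groups were apart by a margin smaller than the spread of either, and the log2 difference was -1.03 (SE 0.32, adjusted p = 0.143 in edgeR). Rab15, of receptor recycling, had a mean of 11.3 CPM in Mtmr2 KO and 15.0 CPM in WT controls (log2 difference -0.41, SE 0.17), and Rab1 a mean of 145 against 171 CPM (log2 difference -0.24, SE 0.13). Without library 4503 these differences were -0.26 for Rab15 and -0.15 for Rab1. On the higher side, the neuronal Rab3c had a log2 difference of 1.05 (SE 0.38) at a mean of 0.763 CPM, and Rab8b, of exocytosis, one of 0.22 (SE 0.13) at 180 CPM. Library 4502 was highest of its group for both, and without it the differences were 0.74 for Rab3c and 0.12 for Rab8b. Neuron markers summed to 26.6 to 95.2 CPM in Mtmr2 KO, with 4502 highest, and to 19.1 to 24.7 CPM in WT controls, and their part in the Rab3c result was not tested.

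**Figure D2:**
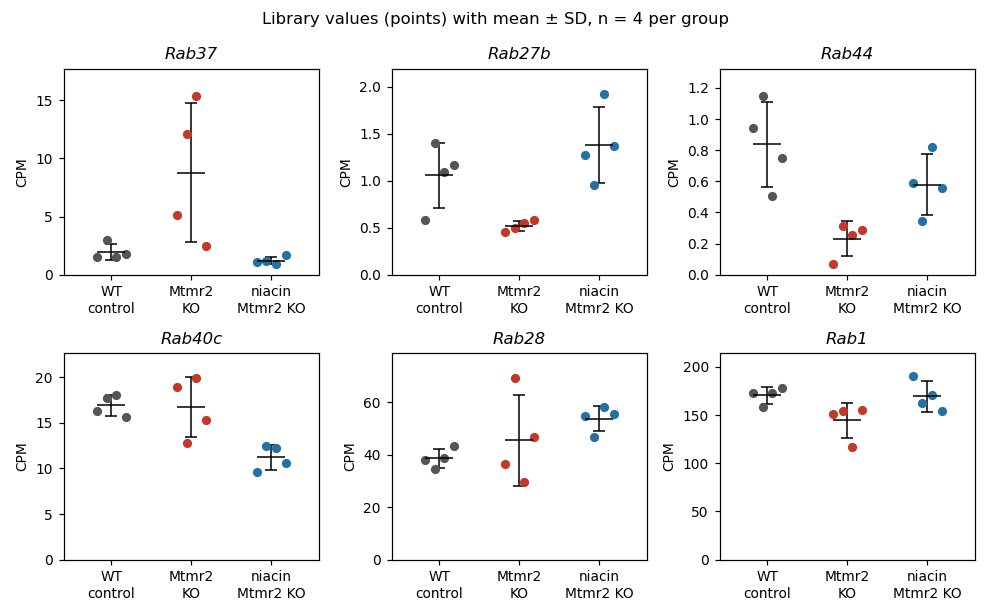
CPM of 6 Rab genes in the 12 libraries, with points for libraries and bars for the mean and SD of 4 libraries per group, each axis starting at 0. All Mtmr2 KO libraries but 4504 have Rab37 at 5.12 CPM or more, the Mtmr2 KO libraries are lowest for Rab27b and Rab44, and the niacin-treated libraries are lowest for Rab40c.

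In niacin-treated against untreated Mtmr2 KO nerves, 2 Rab genes of 56 passed the adjusted test, both of the exocytosis and secretion class, while 1.43% of all genes did (0.695% higher and 0.73% lower). At an unadjusted p under 0.05 there were 6 Rab genes higher and 5 lower, against 8.01% and 12.1% of all genes. Rab37 was lower by 2.84 on the log2 scale (SE 0.48, adjusted p = 0.0383 in edgeR's quasi-likelihood test), at a mean of 1.22 against 8.77 CPM, and was lower in 4 of 4 treated libraries than in any untreated one. Rab27b was higher by 1.41 (SE 0.32, adjusted p = 0.0474 in edgeR), at 1.27, 0.954, 1.92 and 1.37 CPM in the treated nerves, all above the 4 untreated ones. Its libraries held 11 to 42 counts each, so counting error is a large part of its spread. The treated levels of Rab37 and Rab27b lay around those of WT controls, at means of 1.96 and 1.06 CPM. The Mtmr2 KO libraries are shared by these contrasts and the previous ones, so that an extreme value in them gives opposite differences in both. Both calls were close to the threshold and were lost when Mtmr2 KO library 4503 was left out (log2 difference -2.42 for Rab37 and 1.44 for Rab27b, with no Rab gene passing), when any 1 WT control library or the treated library 4506 or 4507 was left out, and when edgeR was fitted on only the 2 groups. Calls were lost across all genes in those fits, of which 0.0746% passed without 4503 and 0 to 0.0114% in the rest. The Rab27b call was also lost without 4501, 4504, 4505 or 4508, where 0.273%, 2.87%, 0.777% and 0.436% of all genes passed. Over 19 other settings the adjusted p of Rab37 ranged from 8.54e-07 to 0.174 and was under 0.05 in 11, and that of Rab27b ranged from 0.00581 to 0.186 and was under 0.05 in 6.

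Without Mtmr2 KO library 4502, in contrast, 15 Rab genes passed in this comparison, 5 higher and 10 lower, but 23.6% of all genes then passed as well. Other Rab genes with small p-values did not pass in edgeR on the 12 libraries. Rab40c and Rab4a, both lower, each passed in 3 of 19 other settings. These were DESeq2 on the 12 libraries, limma-voom with sample weights and the fit without 4502, where 7.02%, 11.6% and 23.6% of all genes passed. Rab40c, a Rab with a SOCS box that joins a ubiquitin ligase (chr17:25882114-25919727), was at 9.65, 12.4, 12.2 and 10.6 CPM in treated nerves, 18.9, 12.8, 19.9 and 15.3 CPM in untreated Mtmr2 KO and 16.3, 17.7, 18.04 and 15.6 CPM in WT controls. Its treated libraries were below the other 8, with a log2 difference of -0.58 from Mtmr2 KO (SE 0.15, adjusted p = 0.0774 in edgeR). Its exons overlap an antisense gene, and the sources used here do not say whether counting used strand. The recycling gene Rab4a had a mean of 13.03 CPM in treated and 22.4 CPM in untreated nerves (log2 difference -0.78, SE 0.24, and -0.56 without 4503), and Rab7b, of late endosome to Golgi traffic, a mean of 33.8 against 21.3 CPM (log2 difference 0.67, SE 0.22), with overlapping groups in both cases. Rab44 (log2 difference 1.33, SE 0.45) and Rab2b, a Golgi Rab (log2 difference 0.18, SE 0.10), were higher in the treated nerves without overlap. The groups did not overlap for 5 Rab genes of 56 in all, 3 higher and 2 lower, against 7.01% of all genes (3.6% higher and 3.4% lower).

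Among markers of mast cells, a cell type whose granule secretion uses Rab27b and Rab44, some moved with these genes and others went the other way. This list was added after the values were seen and has 8 genes, 7 of them tested. The protease genes Cma1, Cpa3, Mcpt4 and Tpsb2 all passed as higher in niacin-treated than in untreated Mtmr2 KO nerves, with log2 differences of 1.65, 1.49, 1.74 and 1.40. These calls were close to the threshold, with an adjusted p of 0.0383 to 0.0457 in edgeR's quasi-likelihood test. They were lost without WT control library 4497, 4499 or 4500, and without treated library 4506 or 4507. The same held for edgeR on only the 2 groups, and in each of these fits no gene at all passed. Tpsb2, for example, had a mean of 24.1 CPM in treated and 9.13 CPM in untreated Mtmr2 KO nerves, and 19.1 CPM in WT controls. Ms4a2 was also higher but did not pass (log2 difference 1.33, SE 0.34), and Fcer1a was not among the genes tested. Kit and Hdc went the other way, with overlapping groups. Their means were 23.3 and 3.34 CPM in Mtmr2 KO against 7.99 and 2.92 CPM in treated nerves, and 13.7 and 1.73 CPM in WT controls. In Mtmr2 KO libraries 4501, 4502, 4503 and 4504, Kit was at 19.9, 15.8, 47.3 and 10.25 CPM and Hdc at 5.09, 2.65, 4.42 and 1.20 CPM. Library 4503, with Mtmr2 in the WT range, thus had the most Kit. The summed level of the list was 53.9 to 100 CPM in WT controls, 48.0 to 68.7 CPM in Mtmr2 KO (highest in 4503) and 88.0 to 104 CPM in niacin-treated nerves. None of its genes was at 0 in every library. In RNA from a whole nerve, fewer cells of a type and less RNA per cell cannot be told apart, and the part of mast cells in the Rab27b and Rab44 results was not tested.

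In niacin-treated Mtmr2 KO against WT control nerves, no Rab gene and no other gene passed the adjusted test in edgeR with the 12 libraries in the model, although 4254 genes had an unadjusted p under 0.05. The unadjusted p was under 0.05 for 13 Rab genes, 4 higher and 9 lower, which is near the 24.7% of all genes (10.1% higher and 14.6% lower). For 20 Rab genes of 56 the groups did not overlap, 8 higher and 12 lower in treated nerves, against 31.4% of all genes (14.9% higher and 16.6% lower). The count of calls depended on which libraries were fitted and on the tool. Fitted on the 2 groups alone, edgeR passed 17 Rab genes (6 higher and 11 lower) and 33.9% of all genes, and without Mtmr2 KO library 4502 it passed 9 Rab genes (3 higher and 6 lower) and 21.6% of all genes. DESeq2 on the 12 libraries passed Rab35 and Rab40c, both lower, and 7.22% of all genes. In each of these fits the share among Rab genes was at or below that among all genes.

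Of the 19 endosomal members, 7 did not overlap between these groups, which in both directions together is near the 31.4% of all genes that did not. By direction, 1 of the 19 was higher (Rab9) and 6 were lower in the treated nerves, against 14.9% and 16.6% of all genes. This split was not tested. Rab35, which returns cargo from endosomes to the plasma membrane (chr5:115631908-115647736), was at 67.0, 64.7, 71.5 and 66.7 CPM in WT controls and at 48.8, 50.2, 44.8 and 37.1 CPM in treated nerves, a log2 difference of -0.58 (SE 0.16, adjusted p = 0.0941 in edgeR). In Mtmr2 KO it was at 78.8, 44.2, 65.5 and 58.2 CPM, so that library 4502 was at the level of treated nerves and the rest were not. Rab14, of traffic between recycling endosomes and Golgi, had a mean of 155 CPM in WT controls and 120 CPM in treated nerves (log2 difference -0.37, SE 0.13). Rab21 was at 60.3, 55.8, 53.8 and 48.5 CPM in WT controls and 43.1, 45.9, 39.2 and 33.0 CPM in treated nerves (log2 difference -0.44, SE 0.15). Rab12, of recycling endosome to lysosome sorting (log2 difference -0.36, SE 0.14), Rab4a (-0.53, SE 0.24) and Rab15 (-0.33, SE 0.17) were the other lower ones. Rab9 was at 34.7, 32.1, 36.1 and 37.7 CPM in WT controls and at 46.0, 41.3, 48.0 and 48.7 CPM in treated nerves (log2 difference 0.39, SE 0.18).

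**Figure D3:**
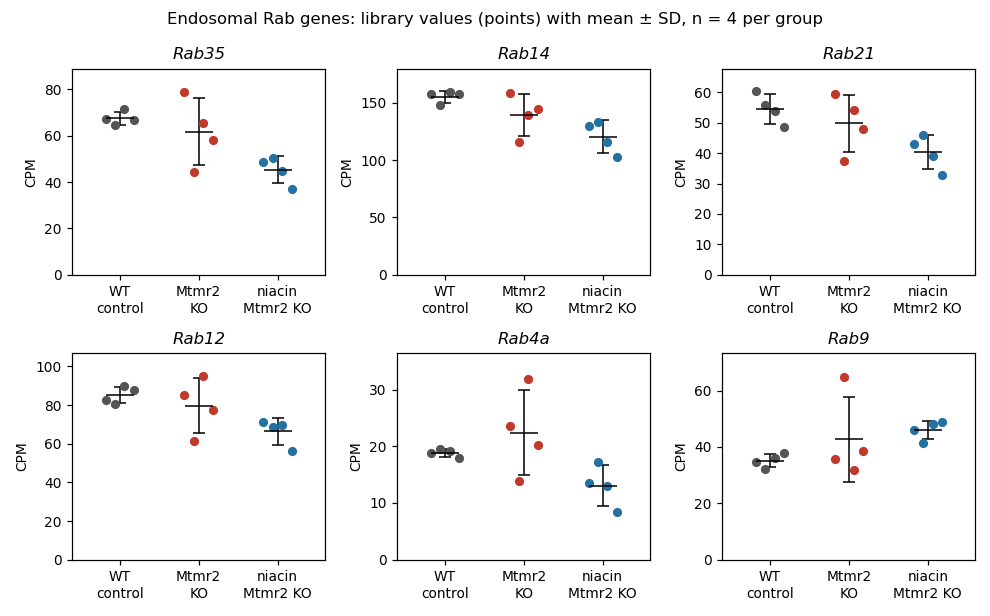
CPM of 6 endosomal Rab genes in the 12 libraries, with points for libraries and bars for the mean and SD of 4 libraries per group, each axis starting at 0. Rab35, Rab14, Rab21, Rab12 and Rab4a are lower and Rab9 is higher in the niacin-treated than in the WT control libraries without overlap, while the Mtmr2 KO libraries overlap both.

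Among the other members, Rab28, the Rab named for the exchange activity of the Mtmr2 partners Sbf1 and Sbf2, was at 37.8, 34.5, 38.7 and 43.2 CPM in WT controls and at 54.7, 46.8, 58.1 and 55.3 CPM in treated nerves. The treated libraries were all above the controls, with a log2 difference of 0.48 (SE 0.21, adjusted p = 0.184 in edgeR). In Mtmr2 KO it was at 36.6, 69.3, 29.5 and 46.6 CPM, with 4502 above every other library. The log2 difference between Mtmr2 KO and WT control was 0.24 (SE 0.21) and turned to -0.041 without 4502, while it was 0.40 without 4503. Rab40c (log2 difference -0.59, SE 0.15), Rab3d, of secretory granules (-0.32, SE 0.13), Rab40b (-0.39, SE 0.17), Rab24, of autophagy (-0.30, SE 0.13), Rab43 (-0.30, SE 0.16) and Rab10, of exocytosis (-0.30, SE 0.16), were lower in treated nerves without overlap. Rab3c (log2 difference 1.30, SE 0.38), Rab2b (0.22, SE 0.10), Rab8b (0.29, SE 0.13), Rab30, of the Golgi (0.43, SE 0.23), Rab18, of lipid droplets and ER (0.17, SE 0.11), and Rab33b, a Golgi Rab that binds an autophagy factor (0.17, SE 0.11), were higher without overlap. Mitochondrial genes took a larger share of counts in every treated library than in any control, at 3.496% to 5.43% against 2.10% to 2.80%, and endothelial markers summed to 171 to 278 CPM against 359 to 419 CPM. Markers of 3 cell types were higher without overlap, neurons at 31.1 to 41.0 against 19.1 to 24.7 CPM, non-myelinating Schwann cells at 493 to 691 against 391 to 487 CPM and macrophages at 473.9 to 733 against 386 to 473.3 CPM. Skeletal muscle markers, at 53.2 to 2796 against 11.4 to 49.9 CPM, were higher too. The part of any of these in the differences was not tested.

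The promoters of the members were searched for 12 motifs on both strands, from 250 bases before to 50 after the start site in RefSeq sequence on GRCm38.p6, which held 48 of the 59 genes. The motifs were chosen with values of these data known. The core of the CLEAR element, TCACGTGA, bound by TFEB and its relatives in front of lysosomal genes, was in 3 of the 48 (6.25%) and in 1.12% of all 27025 genes with a promoter. Those 3 are shown because Rab21 and Rab24 are among the genes lower in niacin-treated than in WT control nerves without overlap. That held for 12 of 56 Rab genes and for 16.6% of all genes. The choice was made from these same values, and a link of the motif to level was not tested. The third, Rab5a, overlapped, with 66.9 to 107 CPM in treated nerves against 99.8 to 116 CPM in WT controls. The match is in capitals. The promoters lie at chr10:115315542-115315841 (minus strand, Rab21), chr13:55321931-55322230 (minus strand, Rab24) and chr17:53478984-53479283 (plus strand, Rab5a), each written 5′ to 3′ on its own strand.
Rab21: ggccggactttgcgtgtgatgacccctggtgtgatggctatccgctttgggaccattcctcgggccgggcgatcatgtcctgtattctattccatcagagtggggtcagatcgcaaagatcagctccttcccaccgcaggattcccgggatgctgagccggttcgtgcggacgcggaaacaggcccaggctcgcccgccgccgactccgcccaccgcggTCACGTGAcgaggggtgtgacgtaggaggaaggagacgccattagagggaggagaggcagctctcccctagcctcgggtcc
Rab24: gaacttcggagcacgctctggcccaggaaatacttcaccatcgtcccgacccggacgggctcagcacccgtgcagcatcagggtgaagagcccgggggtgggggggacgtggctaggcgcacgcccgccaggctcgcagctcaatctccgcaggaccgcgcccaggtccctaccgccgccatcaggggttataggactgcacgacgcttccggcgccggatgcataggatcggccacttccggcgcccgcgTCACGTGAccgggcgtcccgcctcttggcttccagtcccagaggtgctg
Rab5a: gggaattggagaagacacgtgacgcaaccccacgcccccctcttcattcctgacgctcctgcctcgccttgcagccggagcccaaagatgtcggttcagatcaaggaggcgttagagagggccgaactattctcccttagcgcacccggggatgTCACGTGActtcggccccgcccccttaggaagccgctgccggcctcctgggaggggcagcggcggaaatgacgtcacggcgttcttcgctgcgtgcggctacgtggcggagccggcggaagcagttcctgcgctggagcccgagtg
The match starts at base 220 of 300 in Rab21, 252 in Rab24 and 155 in Rab5a. The shorter E-box CACGTG, which lies within it, was in 12.5% of Rab promoters and 8.09% of all. AGATAA, a site of GATA factors, was in 4.17% of Rab promoters and 12.7% of all. TGACGTCA, the CREB site, was in 4.17% and 2.03%, and the Sp1 site GGGGCGGGG in 12 of the 48 promoters and 12.9% of all. Part of a steroid receptor site, TGTNCT, was in 41.7% and 54.0%. The core promoter letters TATAAA were in 8.33% and 15.7%, and the STAT site TTCNNNGAA in 10.4% and 9.55%. The site TTATGNAA was in 4.17% and 3.99%, and the letters CCAAT in 54.2% and 41.1%. CGCATGCG (NRF1) was in 1 of the 48 and in 2.07% of all, and ACCGGAAGT (ETS) in 0 of the 48 and in 1.21% of all. These letters are a description of the windows, and binding was not measured.

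Endosomal and other Rab genes were set side by side in each comparison, as medians of log2 differences without a test. In Mtmr2 KO against WT control the median was -0.05 for the 19 endosomal and -0.07 for the 37 other genes, against 0.03 for all genes. In niacin-treated against untreated Mtmr2 KO it was -0.03 for endosomal and 0.07 for other genes, against -0.04 for all genes. In niacin-treated Mtmr2 KO against WT control it was -0.15 for endosomal and -0.02 for other genes, against 0.02 for all genes. Endosomal members lay below 0 in 11 of 19, 11 of 19 and 12 of 19 genes in these 3 comparisons, against 46%, 54.1% and 48.5% of all genes. With 1 library left out, the endosomal median of the first comparison was between -0.13 (without 4501) and 0.010 (without 4502), and that of the last between -0.25 (without WT control 4500) and -0.088 (without WT control 4497). Without 4503 the endosomal median was -0.09 in Mtmr2 KO against WT control and -0.12 in niacin-treated against untreated Mtmr2 KO. In the last comparison that of the other genes was 0.0088 without 4508. Within the endosomal class the recycling members were lowest in niacin-treated against WT control nerves, with a median of -0.33 and 6 of 7 below 0, while the late endosome members had a median of 0.22 and 4 of 5 above 0. On a narrow list of 14 core endosomal genes the medians were -0.02, -0.03 and -0.08.

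**Figure D4:**
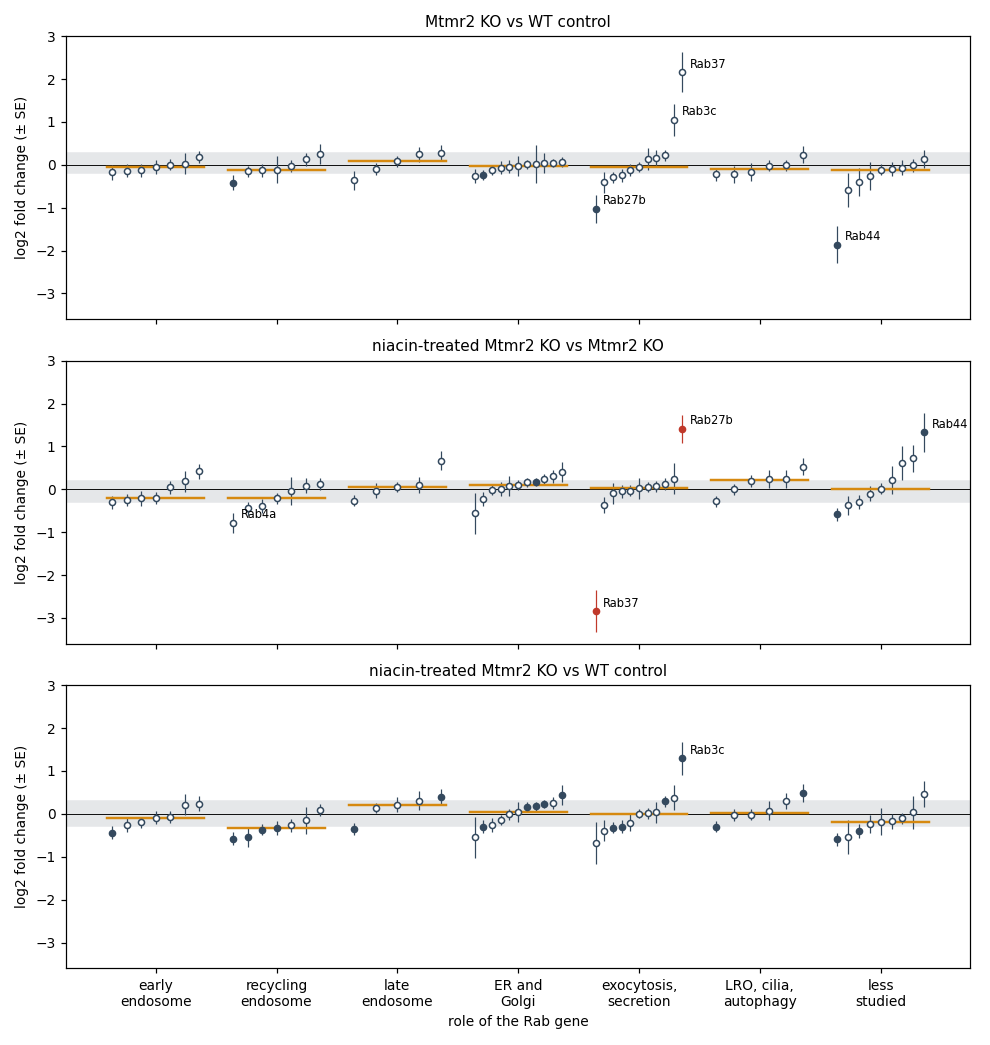
Log2 fold change with its standard error for each of the 56 tested Rab genes by role (LRO, lysosome-related organelles) in the 3 comparisons. Filled points are genes whose groups do not overlap, red points passed the adjusted test (Rab37 and Rab27b in the middle panel), orange bars are medians of a role, and the grey band spans the quartiles of all genes.

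The libraries of the Mtmr2 KO group were the most unequal. The median over Rab genes of the SD of log2 CPM was 0.10 in WT controls, 0.29 in Mtmr2 KO and 0.21 in niacin-treated nerves, and over all genes it was 0.16, 0.40 and 0.22. Libraries 4502 and 4503 were the opposite extremes of the Mtmr2 KO group for 23 of 56 Rab genes, and for 32.1% of all genes. Library 4502 was highest and 4503 lowest for 12 of these, and the reverse held for 11. Endosomal genes had a median log2 deviation from the WT mean of -0.43 in 4502 and -0.40 in niacin-treated library 4508, and of -0.12 to 0.07 in the other libraries. The other Rab genes lay at -0.10 and -0.15 in those libraries, which had the 2 highest mitochondrial shares, at 6.997% and 5.43%. The part of RNA composition in the endosomal medians was not tested.

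**Figure D5:**
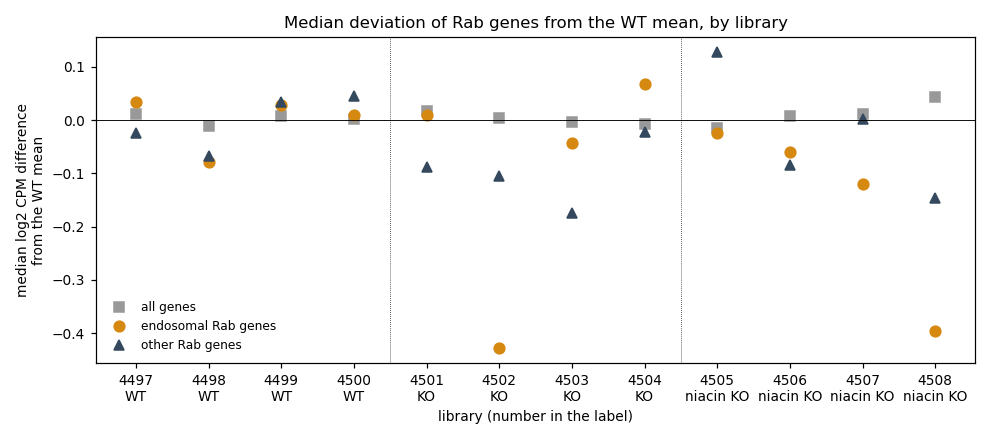
Median log2 CPM difference from the WT mean in each library, for endosomal Rab genes (circles), other Rab genes (triangles) and all genes (squares). Endosomal Rab genes are lowest in libraries 4502 and 4508, at -0.43 and -0.40, while the medians of all genes lie between -0.02 and 0.04.

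The proteins that load, switch and read Rabs were followed through a list of 109 genes, 107 of them tested, of which 1 listed symbol, Tbc1d22bos, is an antisense transcript. In Mtmr2 KO against WT control none passed in edgeR, with 11 at an unadjusted p under 0.05, against 17.2% of all genes. The smallest p-values were those of Tbc1d2b, a GTPase-activating protein for Rab22a, at 22.0 against 33.23 CPM (log2 difference -0.59, SE 0.13, adjusted p = 0.0631 in edgeR, groups apart), and Tbc1d22b, at 12.9 against 18.5 CPM. On the higher side were Rilpl2, at 23.6 against 19.0 CPM with groups apart, and Rilp, the effector that couples Rab7 to dynein. Rilp was at 9.68, 9.64, 49.4 and 5.72 CPM in Mtmr2 KO and at 5.94 to 8.52 CPM in WT controls, and its log2 difference was 1.43, but 0.27 without library 4503. Tbc1d2b passed in DESeq2 on the 12 libraries and in 7 of 19 other settings, with an adjusted p from 0.00234 to 0.188.

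In niacin-treated against untreated Mtmr2 KO nerves 1 of the 107 passed, against 1.43% of all genes. Tbc1d17, a GTPase-activating protein that acts in endosome to Golgi and recycling traffic, was at 40.8, 47.0, 39.3 and 35.04 CPM in treated, 72.0, 47.1, 105 and 68.0 CPM in untreated Mtmr2 KO and 68.1, 71.0, 67.3 and 62.8 CPM in WT control nerves. The 4 treated libraries were below the other 8, the nearest being 47.0 CPM in a treated and 47.1 CPM in an untreated library, and the log2 difference was -0.85 (SE 0.19, adjusted p = 0.0461 in edgeR). Without library 4503 it was -0.62 and did not pass, nor did it pass without 4501, without any 1 WT control or without any 1 treated library. In those fits 0 to 0.777% of all genes passed. Over 19 other settings its adjusted p ranged from 0.00266 to 0.203 and was under 0.05 in 8. Rilpl1 (log2 difference -0.81, SE 0.21, and -0.54 without 4503) had the next smallest p on the lower side, and Rab3il1, an exchange factor of Rab8 (0.56, SE 0.16), and Tbc1d23, a Golgi tether for endosomal vesicles (0.41, SE 0.15), had the smallest on the higher side.

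In niacin-treated Mtmr2 KO against WT control nerves none of the 107 passed in edgeR on the 12 libraries, and 52 passed when only the 2 groups were fitted, where 33.9% of all genes did. At an unadjusted p under 0.05 there were 12 higher and 27 lower, against 10.1% and 14.6% of all genes. Rab11fip5, an effector of Rab11 in recycling, was lower at 38.9 against 60.5 CPM (log2 difference -0.64, SE 0.14), as was Tbc1d22b (-0.73, SE 0.18), both with an adjusted p of 0.0833 in edgeR. Rabif, which binds nucleotide-free Rabs (0.46, SE 0.17), and Vps29, a subunit of the retromer that retrieves cargo from endosomes (0.44, SE 0.18), were higher with groups apart. Exchange factors lay below 0 in 26 of 34 genes and prenylation and recycling factors below 0 in 2 of 8, against 60.7% of the 107 genes and 48.5% of all genes.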

How the data were processed

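RNA was poly(A)-selected and sequenced as paired reads, and per the labels and the methods the authors demultiplexed with CASAVA 1.9, mapped reads to GRCm38 with STAR and deposited raw read counts per Ensembl gene, without normalization. For the counting program, the STAR version and the use of strand, the sources used here say nothing. The authors' DESeq2 tables hold fold changes and p-values, of which only the gene symbols were used. Members, lists and tests were chosen with earlier results of these data known. The analysis used edgeR 4.0.16 (R 4.3.3): filterByExpr by group, TMM scaling and 1 quasi-likelihood model of the 3 groups over 12 libraries without covariates, two-sided, with Benjamini-Hochberg adjustment over 17257 genes and calls at 0.05. The standard error is the log2 difference divided by the square root of F, and log2 CPM used a prior count of 2. The model was also run on simulated counts, and the outcome of that run is not reported here. A further marker of the Schwann cell list is not reported here. Library totals were 20763951 to 33191106, and intervals between libraries measure the spread between mice. Of the members, 17 have exons that overlap another gene, 3 of these on the same strand. With 4 against 4 libraries the smallest exact permutation p is 0.0286, the value reached by each gene whose groups do not overlap. Genes were named by rule: all endosomal members, the 10 highest in WT controls, members called, with the 3 smallest p per direction or without overlap in a comparison, Rab28, Mtmr2, and regulators called or with the 2 smallest p per direction. Alternatives were DESeq2 1.42.0, limma 3.58.1 voom with sample weights, DESeq2 size factors, no filter, at least 10 counts in every library, only the 2 groups compared, and leaving out each library.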

Additional observations from a re-analysis of the deposited data

Results flagged for a closer look

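Each Rab gene named for a difference between groups, and Rab28, was checked in each group of 4. A library was flagged if its gap to the nearest other as a share of the range was above the critical value of Dixon's test at 95%. Rab genes named only for their level were not checked. Of 75 sets, 5 had such a library, and chance gives about 1 in 20. Rab1 was at 117 CPM in Mtmr2 KO library 4503 against 151 to 156 CPM in the rest of its group. Rab8b was at 217 CPM in Mtmr2 KO library 4502 against 162 to 171 CPM, and at 216 CPM in niacin-treated library 4505 against 176 to 182 CPM. Rab12 was at 56.2 CPM in niacin-treated library 4508 against 68.8 to 71.1 CPM, and Rab33b at 39.0 CPM in WT control library 4498 against 45.6 to 46.3 CPM.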

How the results depend on the processing

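No paired analysis was possible because the groups share no replicate numbers. Counts of calls depended on the setting, and so did the sign of 2 of the differences named and of 3 medians. Without library 4503 the difference of Tbc1d17 between Mtmr2 KO and WT control was -0.11, and without 4502 that of Rab28 was -0.041 (over the 12 libraries left out, -0.11 to 0.28 and -0.041 to 0.40). Of the named genes under settings other than leave-one-out, 262 differences kept their direction and side of the threshold, 97 passed where the main test did not and 4 failed where it passed. For Mtmr2 KO against WT control, DESeq2 on 12 libraries or 2 groups and edgeR without a filter gave 1 Rab gene higher, 1 lower and 1 regulator, as voom did for regulators, and leaving out 1 library gave 0 to 1 higher, 0 lower and 0 to 3 regulators. Of all genes, these 4 fits passed 4.25%, 2.71%, 1.01% and 0.626%, and leaving out 1 library 0 to 2.6%. For niacin against Mtmr2 KO, Rab genes higher were 0 by voom and 0 by edgeR on 2 groups, and those lower were 3 by DESeq2 on 12 libraries, 4 by voom and 0 by edgeR on 2 groups. Regulators were 5, 17 and 0 in those fits and 2 without a filter, where 7.02%, 11.6%, 0% and 1.69% of all genes passed. Leaving out 1 library gave 0 to 5 higher, 0 to 10 lower and 0 to 37 regulators, while 0 to 23.6% of all genes passed. It moved the endosomal median to between -0.24 and -0.016 and that of other Rab genes to between -0.0038 and 0.11, below 0 without 4505. In the other comparisons the endosomal median turned to 0.010 (Mtmr2 KO against WT control, without 4502) and that of other Rab genes to 0.0088 (niacin against WT control, without 4508). For niacin against WT control, voom, edgeR on 2 groups and DESeq2 on 2 groups gave 8, 6 and 6 Rab genes higher, 16, 11 and 11 lower and 58, 52 and 54 regulators. DESeq2 on 12 libraries gave 2 lower and 11 regulators, no filter gave 2 regulators, and leaving out 1 library gave 0 to 3 higher, 0 to 6 lower and 0 to 34 regulators. Among all genes in that comparison, voom, edgeR on 2 groups and DESeq2 on 2 groups passed 42.4%, 33.9% and 36.8%. DESeq2 on 12 libraries passed 7.22%, no filter 0.918% and leaving out 1 library 0 to 21.6%. The 5 highest genes were the same by longest transcript, with 41.7% of the summed level. With lengths by longest transcript or none, chosen after seeing the data, the recycling share stayed lowest in the niacin group (9.22% and 11.8% against 10.6% and 13.8% in WT controls), and the late endosome share of WT controls stayed below Mtmr2 KO by longest transcript (14.4% to 14.6% against 14.7% to 17.5%) but overlapped it with none (11.1% to 11.5% against 11.3% to 13.2%). Low counts limit Rab44, Rab27b and Rab3c. The cause of these dependences was not tested.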
